A study of Mus musculus with 6 samples.

Results

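The respiratory chain and ATP synthase were followed here through 86 of the 24421 genes in the expression table of the series. Genes were taken by symbol: the Nduf subunits of complex I (37 genes), the Sdh subunits of complex II (4), the Uqcr subunits and Cyc1 of complex III (9), cytochrome c (Cycs, 1), the Cox subunits of complex IV (18) and the Atp5 subunits of complex V, the ATP synthase (17). In the inner mitochondrial membrane, complexes I and II pass electrons from NADH and succinate to coenzyme Q, complex III passes them on to cytochrome c, and complex IV hands them to oxygen. Complexes I, III and IV pump protons, and the proton gradient turns the rotor of ATP synthase. In macrophages the balance of this chain with glycolysis is known to differ between inflammatory and alternatively activated states.

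The series holds RNA sequencing of macrophages sorted as positive for F4/80 and CD11b from vWAT, the white fat that surrounds organs of the belly, in C57BL/6N males aged 12 weeks. All 3 groups ate a diet with 60 kcal% fat, and the injections were subcutaneous, given once in 6 days over 30 days. One group received 4-hydroxyestrone (4-OHE1, an estrogen metabolite with an added hydroxyl group on the aromatic ring) at 10 mg/kg, another received estradiol (E2) at 10 mg/kg, and the control group received the ethanol vehicle (EtOH). Each group has 2 libraries. The labels do not say whether these came from separate animals, so every p-value here measures no more than how far these libraries differ, and that spread may be technical.

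Libraries held 4515276 to 5764342 exon reads in 4-OHE1, 5349386 to 5606659 in E2 and 18697456 to 35293924 in EtOH. Exons held 61.7% ± 1.19 of the mapped reads in 4-OHE1, 74.1% ± 2.41 in E2 and 84.8% ± 0.366 in EtOH (SD, n = 2 each), and Malat1, an RNA kept in the nucleus, averaged 919 ± 93.6, 433 ± 104 and 199 ± 1.83 deposited RPKM in 4-OHE1, E2 and EtOH in that order. RPKM is a read count set against exon length and library size, and the authors took all mapped reads as the library size. Because of the differing exon share, levels below are, unless called deposited, exon-scaled RPKM, the deposited RPKM multiplied by a factor per library (1.36 and 1.39 in 4-OHE1, 1.12 and 1.17 in E2, 1.00 and 0.997 in EtOH) that sets each library to its exon reads. A gene is called higher or lower only where limma's adjusted p was under 0.05 with the deposited scaling and with the exon scaling, in the same direction. The printed log2 changes use the exon scaling on RPKM + 1, and the printed adjusted p is the larger of both.

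Macrophage genes were well above those of other cell types, but their level moved with the groups. The 10 core macrophage markers summed to 6284 to 6297 exon-scaled RPKM in 4-OHE1, 7352 to 7384 in E2 and 9054 to 9132 in EtOH, with 1 of the 10 higher and 5 lower in 4-OHE1 against EtOH. Adgre1, which encodes F4/80 itself, stood at 195 and 187 exon-scaled RPKM in 4-OHE1, 199 and 194 in E2, and 302 and 304 in EtOH. Its log2 change in 4-OHE1 against EtOH was -0.66, and it was called lower, as was Cd68 at -0.39. Itgam, which encodes the other sort marker CD11b, lay at -0.16, and Csf1r lay the other way at 0.27. Neither of these was called. The 13 adipocyte markers summed to 1383 to 1417 exon-scaled RPKM in 4-OHE1, 1097 to 1192 in E2 and 1153 to 1157 in EtOH, with 7 higher and 2 lower in 4-OHE1 against EtOH and 5 higher and 1 lower in E2 against EtOH. In deposited RPKM the adipocyte sum of 4-OHE1 lay below that of EtOH, at 1016 to 1019 in 4-OHE1, 981 to 1018 in E2 and 1150 to 1160 in EtOH. The 8 stromal markers summed to 243 to 247 exon-scaled RPKM in 4-OHE1, 232 in both E2 libraries and 268 to 270.3 in EtOH. Markers of brown adipocytes (7 genes, the highest sum of any library 10.9 exon-scaled RPKM) and of skeletal muscle (7 genes, 5.99, Myh4 at 0 in every library), cell types rich in mitochondria, were near the bottom of the scale. These lists overlap the subunit genes followed here: Cox7a1 and Cox8b are in the former and Cox6a2 in the latter. Cox7a1 alone made up 10.5 of the 10.9 (EtOH replicate 1) and Cox6a2 4.74 of the 5.99 (EtOH replicate 2). The neutrophil list (8 genes) had Camp and Ly6g at 0 in every library and summed to at most 3.98. T cell (7 genes), B cell (6) and endothelial (6) markers summed to at most 11.3, 17.6 and 36.2 in any library, and 9 genes of epididymis and testis, tissues next to this fat depot, to 7.86 to 14.8 in 4-OHE1, 18.9 to 24.2 in E2 and 4.82 to 4.84 in EtOH. The last list includes the subunit genes Cox6b2, Cox7b2 and Cox8c. In bulk RNA, fewer cells of a type cannot be told apart from less RNA per cell, and the part of these markers in the results below was not tested.

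The subunit genes were strongly expressed. The median of their mean deposited RPKM over the 6 libraries was 73.5, and 70 of the 86 had a mean of at least 20. Cox4i1, the regulatory subunit 4 of complex IV, was the most abundant member, followed within the other complexes by Atp5e (epsilon subunit of the F1 head), Uqcrh (the hinge protein of complex III), Ndufa3 (an accessory subunit of complex I) and Sdhb (the iron-sulfur subunit of complex II). Their means were 367 deposited RPKM for Cox4i1, 242 for Atp5e, 172 for Uqcrh, 153 for Ndufa3 and 96.5 for Sdhb. The 86 members together made up 1.70% ± 0.0636 of the summed deposited RPKM of all genes in 4-OHE1, 1.86% ± 0.000778 in E2 and 1.89% ± 0.0466 in EtOH (SD, n = 2 each). Of the 86, 82 passed the filter for testing, a mean deposited RPKM of at least 1. The other 4 were Cox4i2, Cox7b2, Cox8b and Cox8c, all of complex IV. The mitochondrially encoded subunits are not analysed here.

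Complex IV has subunit genes with a second form used in muscle, lung or testis, and macrophages of all groups used the common form. Cox4i2, the form known from lung and hypoxia, stood at 1.23 and 1.04 exon-scaled RPKM in 4-OHE1, 1.54 and 0 in E2, and 1.20 and 1.27 in EtOH, beside 361 to 451 for Cox4i1 over the 6 libraries. The muscle forms were likewise low. Cox6a2 stood at 0 and 2.87 in 4-OHE1, 3.15 and 1.16 in E2, and 3.19 and 4.74 in EtOH, while its common partner Cox6a1 stood at 254 to 339. Cox7a1 reached at most 10.5 (EtOH), beside 70.8 to 109 for Cox7a2 and 79.9 to 108 for their relative Cox7a2l. Cox8b had at most 3 reads in any library, against 243 to 334 exon-scaled RPKM for Cox8a. The testis forms gave the same picture: Cox6b2 stood at 1.38 to 8.18 beside 253 to 334 for Cox6b1, Cox7b2 had at most 2 reads in a library beside 61.5 to 113 for Cox7b, and Cox8c had 0 reads in all 6 libraries, which allows up to 0.153 RPKM in the deepest EtOH library and 0.901 in an E2 library, counting error alone considered. In complex I, Ndufa4l2, known as a hypoxia-induced relative of Ndufa4, stood at 0.498 to 5.70 beside 136 to 198 for Ndufa4. Ndufa4 was first placed in complex I, as the symbol says, and is now known as a complex IV subunit.

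For 4-OHE1 against EtOH, no subunit gene was higher and 23 of the 82 tested were lower (28.0%). Over all 10950 genes tested, 13.9% were lower and 5.74% higher. Genes as abundant as the members passed more often: of 2771 genes whose mean RPKM reached 20, a level set after the values were seen, 25.2% were lower, beside 22 of 70 members (31.4%). Taken over all exon lengths, the members' share lay near that background. The median log2 change was -0.22 over the members and -0.04 over all genes, or -0.67 and -0.44 with the deposited scaling, which shifts every gene down in 4-OHE1. In all, 47 of the 82 members (57.3%) had both 4-OHE1 libraries below both EtOH libraries, as had 35.2% of all genes tested. The count rested on having both EtOH libraries: it was 2 without EtOH replicate 1 and 1 without EtOH replicate 2, where 3.41% and 3.13% of all genes were lower, and it was 36 without 4-OHE1 replicate 1, where 20.4% of all genes were lower. With edgeR's quasi-likelihood test on reads recovered from the deposited tables, 20 of 79 members were lower, with 14.9% of all genes lower.

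**Figure D1:**
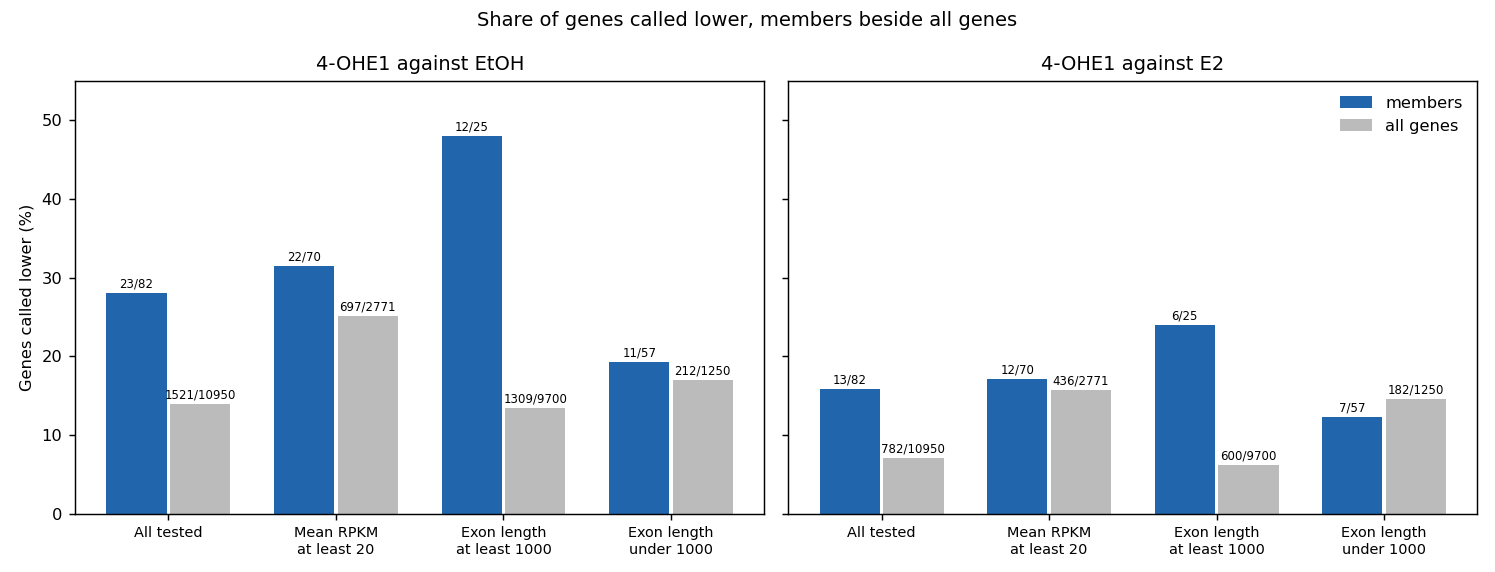
Share of genes called lower (y axis, percent) in 4-OHE1 against EtOH (left) and 4-OHE1 against E2 (right), for the members (blue) and all genes (grey), over all tested genes and within genes of high level, long or short exon length. Labels on the bars give the genes called over those tested. The members' bar stands well above the grey bar among genes of at least 1000 exon bases and near it among shorter genes and abundant genes.

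Exon length went with these shares. Among members with at least 1000 bases of exon, 12 of 25 were lower (48.0%, median log2 change -0.32), while 13.5% of all genes of that length were lower (median -0.03). Among members under 1000 bases, 11 of 57 were lower (19.3%, median -0.19), near the 17.0% of all short genes (median -0.16). These backgrounds were not matched for level. With a mean RPKM of at least 20 as well, 11 of 20 long members were lower, beside 25.9% of all such genes. Of the short members at that level 11 of 50 were lower, beside 22.2% of all such genes. The part of length in the result was not tested.

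**Figure D2:**
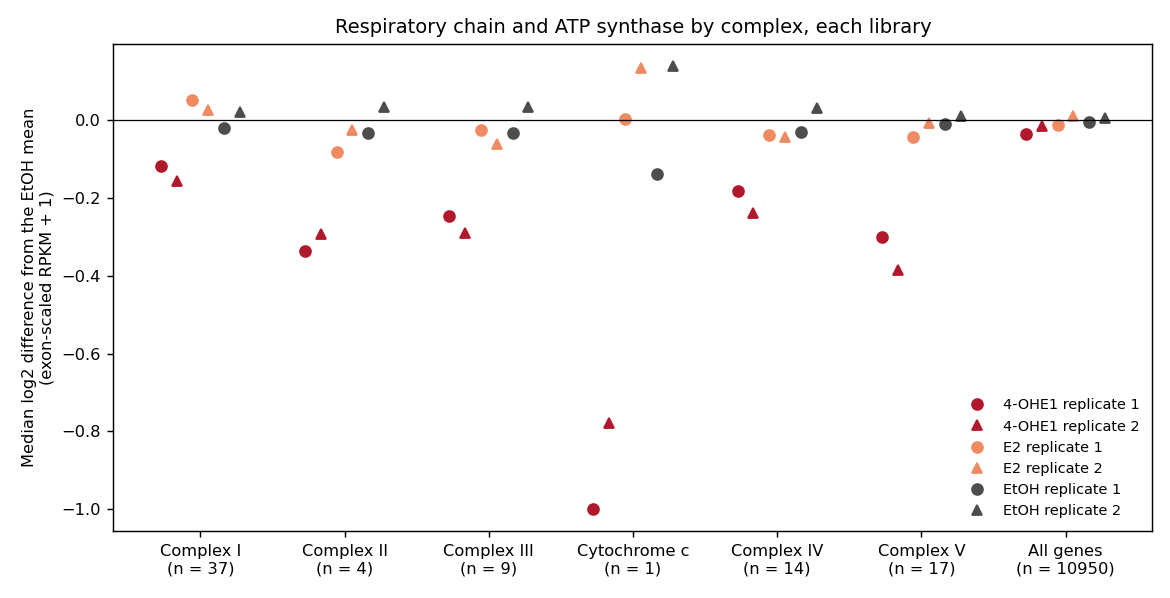
Median log2 difference of each library from the EtOH mean (y axis, log2 of exon-scaled RPKM + 1), for the tested genes of each complex, cytochrome c and all genes (x axis, n genes). Both 4-OHE1 libraries lie below the E2 and EtOH libraries in every complex, by the least in complex I and by the most for the single gene Cycs, while the all-gene medians stay within 0.04 of 0.

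By complex, the medians relative to the EtOH mean were -0.12 and -0.16 in the 2 4-OHE1 libraries for complex I, 0.05 and 0.03 in the E2 libraries, and -0.02 and 0.02 in the EtOH libraries. For complex II they were -0.34 and -0.29 in 4-OHE1, -0.08 and -0.03 in E2, and -0.03 and 0.03 in EtOH. For complex III they were -0.25 and -0.29 in 4-OHE1, -0.03 and -0.06 in E2, and -0.03 and 0.03 in EtOH. In each of these complexes the 4-OHE1 libraries lay below the other 4. For complex IV the values were -0.18 and -0.24 in 4-OHE1, -0.04 and -0.04 in E2, and -0.03 and 0.03 in EtOH. For complex V they were -0.30 and -0.38 in 4-OHE1, -0.04 and -0.01 in E2, and -0.01 and 0.01 in EtOH. Here too the 4-OHE1 libraries were the lowest, though complex II lay below complex V in 4-OHE1 replicate 1. The median log2 change against EtOH was -0.12 for complex I, -0.26 for II, -0.24 for III, -0.21 for IV and -0.35 for V. The calls were 6 of 37 genes in complex I, 2 of 4 in II, 5 of 9 in III, 3 of 14 in IV and 6 of 17 in V, besides Cycs. Whether complexes differed was not tested: with 2 libraries against 2, an exact two-sided permutation test of a complex's median cannot go below p = 0.333.

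**Figure D3:**
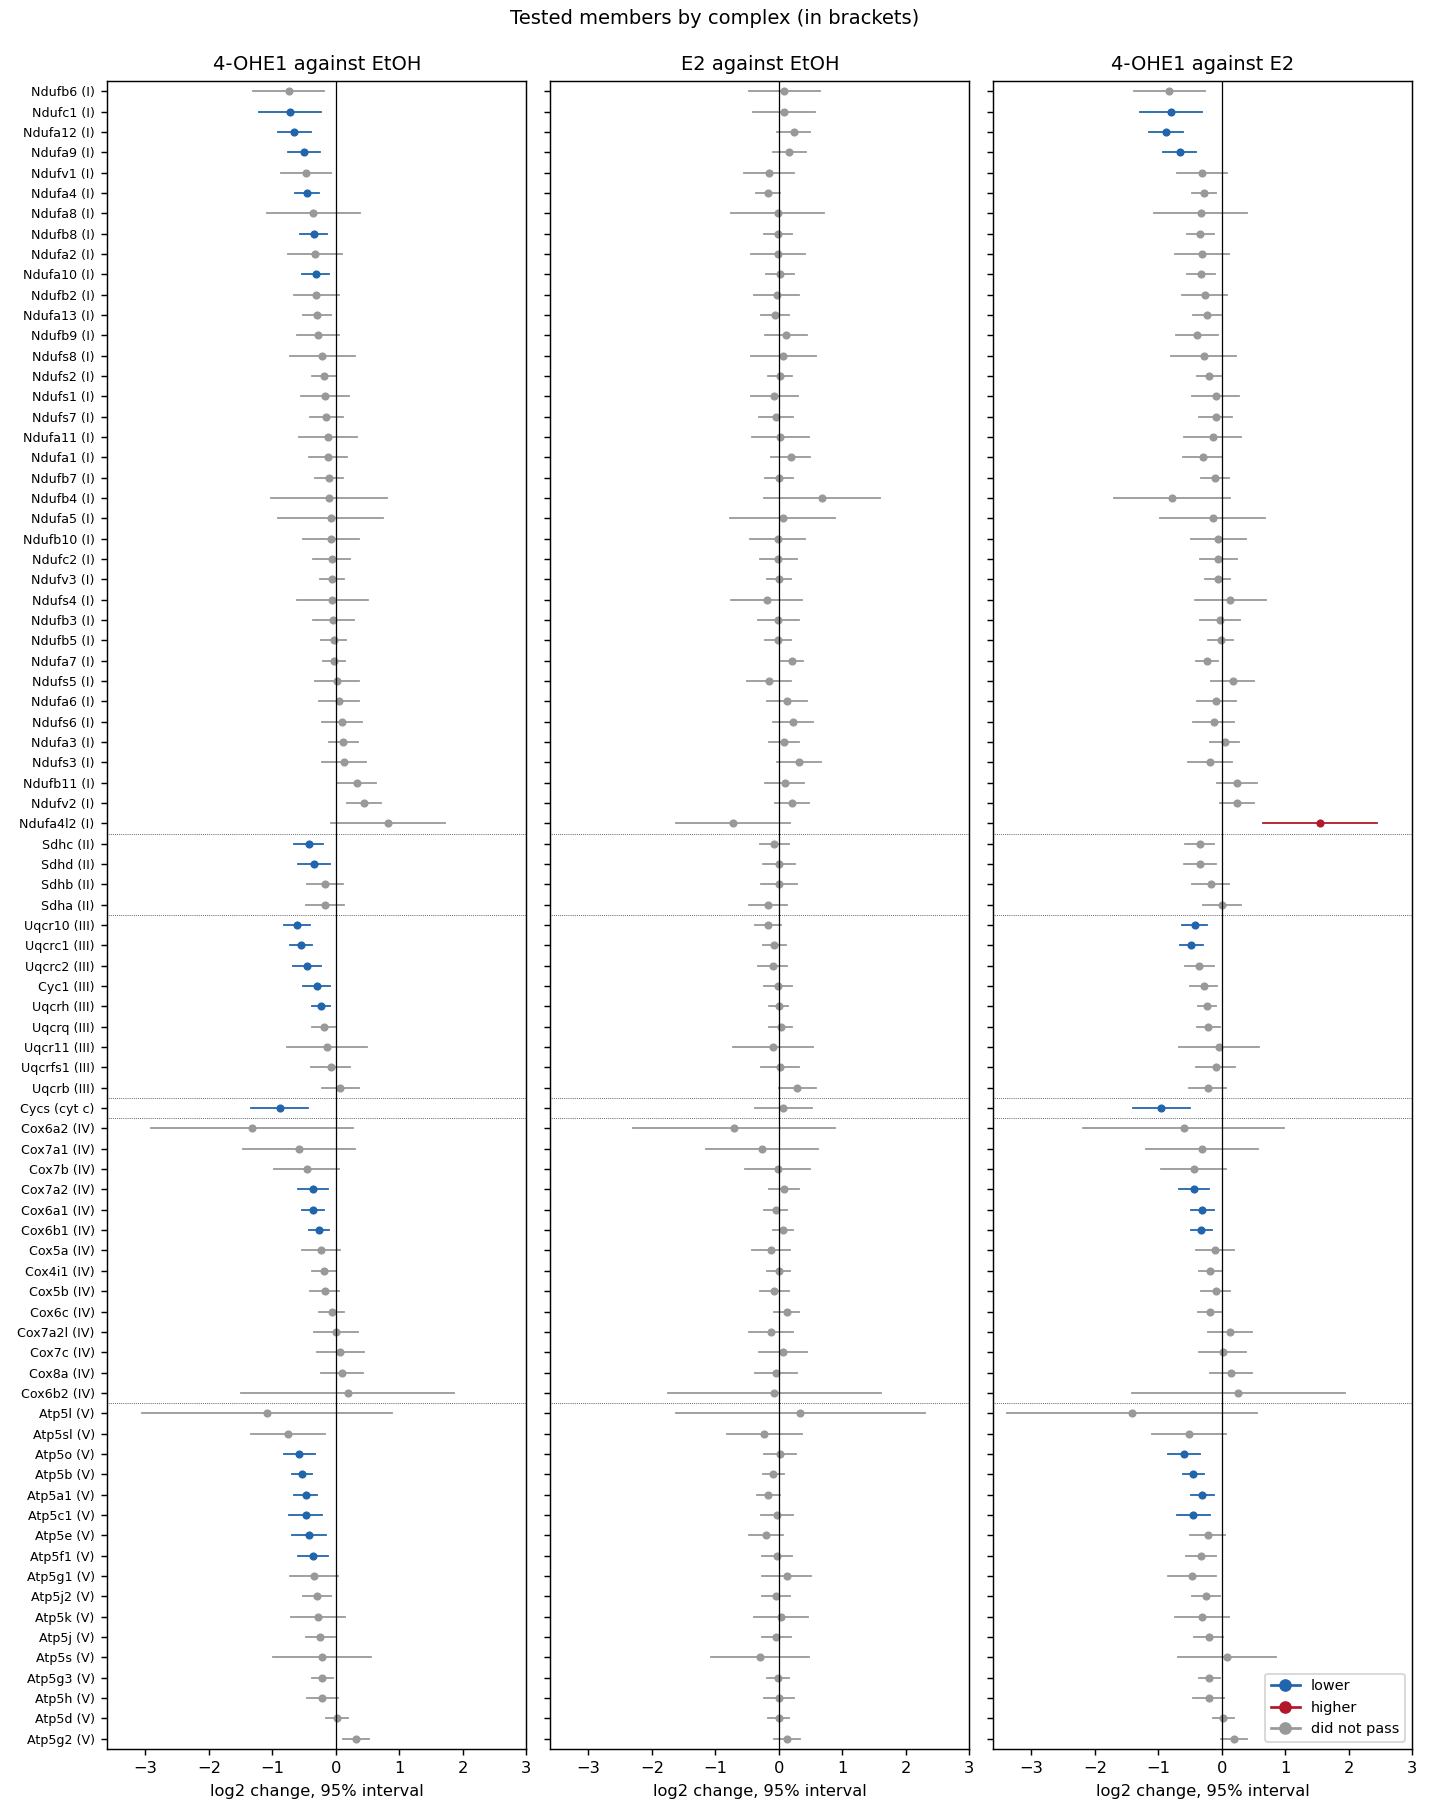
The log2 change of each of the 82 tested members (point) with its 95% interval (line) in 4-OHE1 against EtOH, E2 against EtOH and 4-OHE1 against E2, sorted within complexes by the first comparison. Blue marks the 23 and 13 members called lower in the panels with 4-OHE1, and red marks Ndufa4l2, the only member called higher.

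Complex I takes electrons from NADH through a flavin and a row of iron-sulfur clusters. None of its 7 nuclear core subunits, which carry these groups, passed in either direction (a grouping made after the values were seen, as are those within ATP synthase below). Ndufv1, which binds NADH, stood at 32.2 and 22.7 exon-scaled RPKM in 4-OHE1, 33.5 and 34.0 in E2, and 37.9 and 37.8 in EtOH (log2 change -0.47 against EtOH, limma adjusted p = 0.0818). Ndufv2, its iron-sulfur partner, lay the other way at 80.8 and 70.2 in 4-OHE1, 59.3 and 68.8 in E2, and 55.4 and 55.5 in EtOH. Its log2 change of 0.44 with the exon scaling was -0.02 with the deposited scaling, so it was not called. The other 5 core subunits had log2 changes of -0.22 (Ndufs8) to 0.12 (Ndufs3).

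The 6 complex I genes that fell in 4-OHE1 against EtOH are Ndufc1, Ndufa12, Ndufa9, Ndufa4, Ndufb8 and Ndufa10, all but Ndufa4 accessory subunits. Ndufa12, which sits at the NADH-oxidising end, stood at 30.8 and 26.1 exon-scaled RPKM in 4-OHE1, against 51.7 and 54.5 in E2 and 45.0 and 45.2 in EtOH. It fell by 0.65 ± 0.11 (SE) on the log2 scale against EtOH (limma adjusted p = 0.00804), and the groups did not overlap. Ndufa9, near the coenzyme Q site, stood at 36.2 and 30.7 in 4-OHE1, 52.8 and 54.2 in E2, and 48.1 and 47.2 in EtOH, with a log2 change of -0.50 ± 0.11 against EtOH (limma adjusted p = 0.0181). In both genes the E2 libraries lay above EtOH, without passing the test. Ndufa4 changed by -0.45 (limma adjusted p = 0.00859). Another 3 genes lay closer to the threshold, Ndufc1 at -0.72 (0.0424), Ndufb8 at -0.35 (0.0320) and Ndufa10 at -0.32 (0.0437), with limma's adjusted p in brackets. Ndufb6, a subunit of the membrane arm, had the most negative value of the complex, -0.75, and did not pass (limma adjusted p = 0.0572). Its libraries were 30.4 and 18.7 in 4-OHE1, 48.6 and 38.5 in E2, and 42.3 and 39.3 in EtOH. Ndufa4l2 had the most positive value, 0.82, from 5.08 and 5.70 in 4-OHE1, 0.498 and 2.21 in E2, and 2.75 and 2.49 in EtOH (limma adjusted p = 0.320). Some of the remaining accessory genes were uneven between the replicates of 4-OHE1, among them Ndufa5 (31.2 and 70.0), Ndufa8 (91.3 and 43.8) and Ndufb4 (6.23 and 14.2).

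Complex II oxidises succinate and is also an enzyme of the TCA cycle. Its 2 membrane anchors fell in 4-OHE1 against EtOH, and its 2 catalytic subunits did not pass. Sdhc stood at 87.6 and 75.6 exon-scaled RPKM in 4-OHE1, 101.01 and 107 in E2, and 107 and 113 in EtOH, a log2 change of -0.43 ± 0.10 (SE; limma adjusted p = 0.0205). Sdhd stood at 43.7 and 50.4 in 4-OHE1, 58.1 and 61.9 in E2, and 58.3 and 61.9 in EtOH, and its log2 change of -0.35 ± 0.10 lay at the threshold (limma adjusted p = 0.0499). For these anchors the 4-OHE1 libraries stood apart from the other 4. Sdha, the flavoprotein, differed more between its 4-OHE1 replicates than between groups, at 58.9 and 46.6 in 4-OHE1, 54.0 and 50.9 in E2, and 59.3 and 59.0 in EtOH. Sdhb overlapped between the groups, with 90.0 and 114 in 4-OHE1, 117 and 113 in E2, and 112 and 117 in EtOH. The 95% intervals of their log2 changes against EtOH, -0.47 to 0.13 for Sdha and -0.46 to 0.11 for Sdhb, include the values of both anchors.

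In complex III, 5 of 9 genes fell in 4-OHE1 against EtOH: Uqcr10, Uqcrc1, Uqcrc2, Cyc1 and Uqcrh. Uqcrc1, one of the pair of core proteins (chromosome 9, 108838661 to 108851686 on the plus strand in build mm9), stood at 66.5 and 70.2 exon-scaled RPKM in 4-OHE1, 95.3 and 96.4 in E2, and 101.04 and 100.4 in EtOH. It fell by 0.55 ± 0.07 (SE) on the log2 scale (limma adjusted p = 0.00351), several times the spread between replicates. Uqcrc2, the other core protein, stood at 37.5 and 35.6 in 4-OHE1, 48.9 and 45.5 in E2, and 49.3 and 51.8 in EtOH, with a log2 change of -0.46 ± 0.09 (limma adjusted p = 0.0157). Both core genes were below every E2 and EtOH library in both 4-OHE1 libraries. Uqcr10, a small subunit, had the largest change of the complex, with 109.8 and 99.7 in 4-OHE1, 138 and 145 in E2, and 153 and 168 in EtOH (log2 change -0.61 ± 0.08, limma adjusted p = 0.00409). Cyc1, cytochrome c1, which reduces cytochrome c, stood at 46.9 and 48.0 in 4-OHE1, 60.9 and 55.7 in E2, and 57.7 and 60.2 in EtOH, with a log2 change of -0.31 ± 0.09 close to the threshold (limma adjusted p = 0.0489). Uqcrh changed by -0.24 (limma adjusted p = 0.0320). Uqcrfs1, the Rieske iron-sulfur protein, overlapped between groups with 39.5 and 49.8 in 4-OHE1, 46.1 and 49.0 in E2, and 46.9 and 47.1 in EtOH, and Uqcrb had the most positive value, 0.07. Uqcrq, a small subunit, lay at -0.19 without passing. Uqcr11 was uneven between the 4-OHE1 libraries, at 179.9 and 96.3.

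Cytochrome c carries electrons from complex III to complex IV and is known for triggering apoptosis when it leaves the mitochondria. Cycs (chromosome 6, 50512562 to 50516473 on the minus strand in mm9) stood at 3.18 and 3.88 exon-scaled RPKM in 4-OHE1, 7.37 and 8.17 in E2, and 6.60 and 8.20 in EtOH. It had the largest fall of all called members, with a log2 change of -0.89 ± 0.19 (SE; limma adjusted p = 0.0168). Its mean level changed by -52.3%, more than the log2 change of RPKM + 1 gives, since the added 1 shrinks the change of a low gene. Behind these values stood 66 and 63 reads in 4-OHE1 and 444 and 1042 in EtOH. Cycs is known to have many processed copies in the mouse genome, and how reads that fit several copies were counted is not given in the sources used here, so its level is uncertain.

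In complex IV, the 3 genes that fell in 4-OHE1 against EtOH, Cox7a2, Cox6a1 and Cox6b1, all encode small nuclear subunits around the catalytic core. Cox6a1 stood at 254 and 257 exon-scaled RPKM in 4-OHE1, 339 and 297 in E2, and 326 and 331 in EtOH, a log2 change of -0.36 ± 0.07 (SE; limma adjusted p = 0.0155). Cox6b1 stood at 271 and 253 in 4-OHE1, 334 and 321 in E2, and 303 and 326 in EtOH, with a change of -0.26 ± 0.07 (limma adjusted p = 0.0306). For both genes the lowest E2 or EtOH library lay above the highest 4-OHE1 library. Cox7a2 changed by -0.37 (limma adjusted p = 0.0374). The abundant Cox4i1 stood at 409.9 and 361 in 4-OHE1, 451 and 423 in E2, and 426 and 451 in EtOH, and its log2 change of -0.19 did not pass (limma adjusted p = 0.122). Cox8a, with 334 and 243 in 4-OHE1, 257 and 259.8 in E2, and 261 and 272 in EtOH, and Cox7c lay at 0.10 and 0.07. Of the other common subunits, Cox7b lay at -0.46, Cox5a at -0.24, Cox5b at -0.18, Cox6c at -0.07 and Cox7a2l at 0.00, none of which passed. The extremes of the complex were both low genes with wide intervals, Cox6a2 at -1.32 (95% interval -2.91 to 0.27) and Cox6b2 at 0.18 (-1.49 to 1.86).

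In ATP synthase the calls lay in the F1 head, where ATP is made, and in the stalk that holds the head still. In the head 4 of 5 genes fell in 4-OHE1 against EtOH. Atp5b, the catalytic beta subunit (chromosome 10, 127520363 to 127527444 on the plus strand in mm9), stood at 199.8 and 204 exon-scaled RPKM in 4-OHE1, 291 and 263 in E2, and 289.9 and 297 in EtOH. Its log2 change against EtOH was -0.54 ± 0.07 (SE), with the smallest adjusted p of all members (limma, 0.00292). In deposited RPKM the same libraries read 147 and 147 in 4-OHE1, 260.0 and 224 in E2, and 289 and 298 in EtOH, so the scaling sets the size of the difference but not its direction. Atp5b was the only member that passed as lower in all 19 alternative settings, with log2 changes of -0.99 to -0.52.

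Atp5a1, the alpha subunit beside it in the head, stood at 145 and 147 in 4-OHE1, 172 and 192 in E2, and 200.1 and 208 in EtOH (log2 change -0.48 ± 0.08, limma adjusted p = 0.00634). Here the E2 libraries lay between the other groups. Atp5c1, the gamma subunit that forms the rotor shaft, stood at 95.9 and 109 in 4-OHE1, 132 and 149 in E2, and 135 and 152 in EtOH (-0.48 ± 0.11, limma adjusted p = 0.0204). Atp5e, the epsilon subunit, stood at 263 and 209 in 4-OHE1, 264 and 286 in E2, and 307 and 324 in EtOH (-0.43 ± 0.11, limma adjusted p = 0.0348). Atp5d, the delta subunit and the fifth gene of the head, was level, with 166 and 159.6 in 4-OHE1, 166 and 155 in E2, and 157 and 165 in EtOH. Its log2 change of 0.02 had a 95% interval of -0.15 to 0.18, though it was -0.44 and passed as lower with the deposited scaling alone.

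In the peripheral stalk 2 of 4 genes fell, beside the same 25.2% of abundant genes. Atp5o, the subunit that ties the stalk to the head, stood at 95.1 and 113 in 4-OHE1, 164 and 151 in E2, and 149 and 161 in EtOH (log2 change -0.58 ± 0.10, limma adjusted p = 0.0103). Atp5f1, subunit b, stood at 64.4 and 57.6 in 4-OHE1, 72.9 and 81.8 in E2, and 78.2 and 79.4 in EtOH (-0.37 ± 0.10, limma adjusted p = 0.0372). The other stalk genes, Atp5h and Atp5j, had changes of -0.21 and -0.25 and did not pass. The 3 genes Atp5g1, Atp5g2 and Atp5g3 encode subunit c of the rotor ring, and the mature protein is known to be the same from each. None passed, and they did not lie on the same side of 0. Atp5g1 stood at 51.9 and 37.5 in 4-OHE1, 64.9 and 58.3 in E2, and 55.1 and 58.0 in EtOH, and Atp5g3 at 138 and 152 in 4-OHE1, 166 and 168 in E2, and 169.5 and 168 in EtOH. Atp5g2 stood at 54.7 and 55.5 in 4-OHE1, 49.1 and 47.7 in E2, and 44.9 and 43.3 in EtOH, a log2 change of 0.32 with the exon scaling and of -0.13 with the deposited one. The small membrane subunits, Atp5j2 (-0.30, limma adjusted p = 0.0518) and Atp5k (-0.28), did not pass. Atp5l had 0 and 16 reads in the 4-OHE1 libraries and a 95% interval of -3.05 to 0.88, too wide to place. Atp5sl (-0.75, limma adjusted p = 0.0651) and Atp5s (-0.23) were taken in by their symbols. Atp5sl is now known as a complex I assembly factor.

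**Figure D4:**
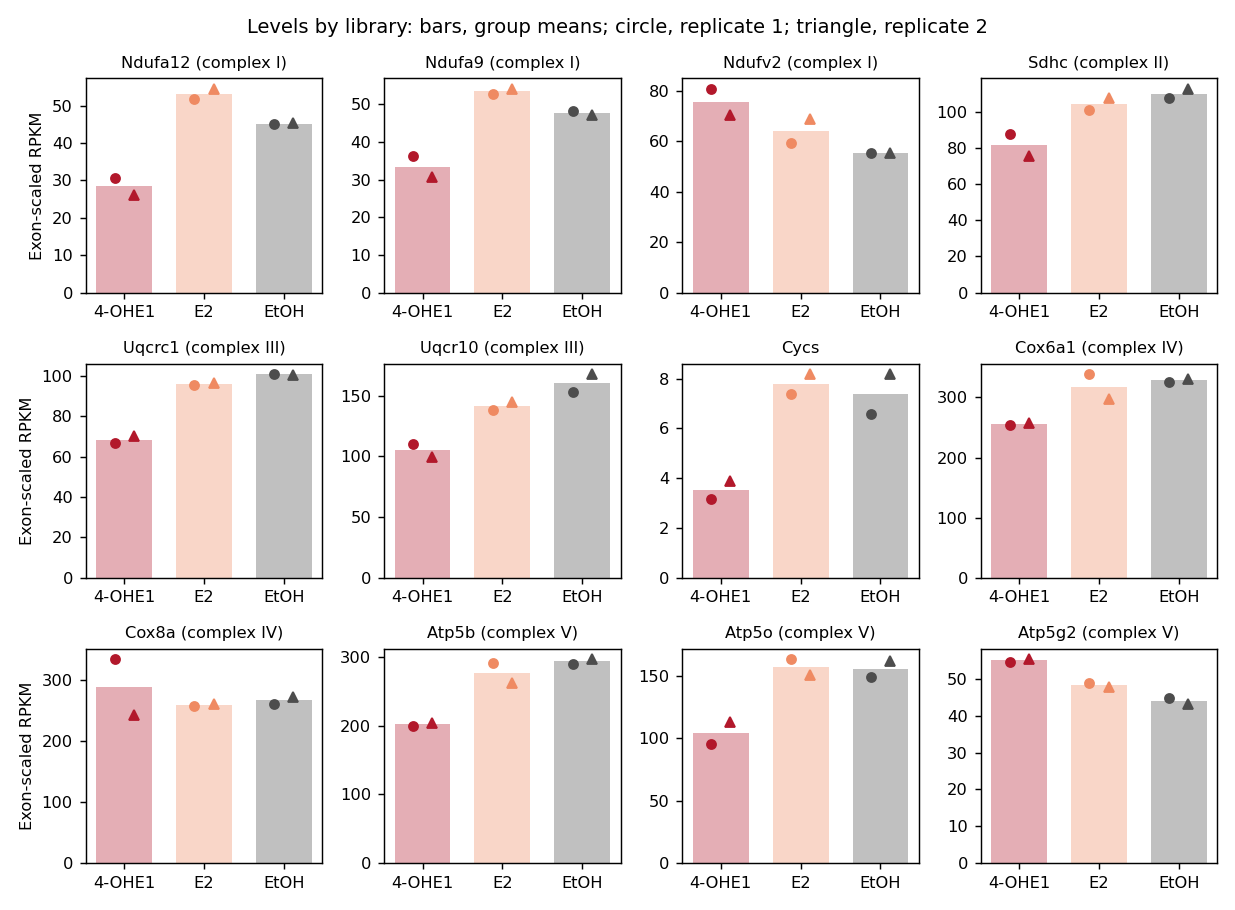
Exon-scaled RPKM (y axes, from 0) of 12 members in 4-OHE1, E2 and EtOH. Bars are group means, circles replicate 1 and triangles replicate 2. In 9 of the panels both 4-OHE1 points lie below all others, and in Ndufv2 and Atp5g2 both lie above all others, while Cox8a overlaps.

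For E2 against EtOH, 0 of the 82 members passed in either direction with limma, and 0 had an unadjusted p under 0.05 in both scalings. By edgeR and by DESeq2 the counts called were 0 too, with at most 1 member in each direction at an unadjusted p under 0.05. Over all genes tested, 1.75% were higher and 2.17% lower. The members' median log2 change was -0.01, and the complexes had medians of 0.01 (I), -0.04 (II), -0.02 (III), -0.05 (IV) and -0.03 (V), with Cycs at 0.07. The 95% interval of the change lay within 2-fold either way for 75 of the 82 members. For Atp5b it ran from -0.25 to 0.08, for Uqcrc1 from -0.25 to 0.11 and for Cox6a1 from -0.23 to 0.13. The most negative values were Ndufa4l2 (-0.72) in complex I, Sdha (-0.17), Uqcr10 (-0.18), Cox6a2 (-0.71) and Atp5s (-0.30), and the most positive were Ndufb4 (0.68), Sdhb (0.00), Uqcrb (0.29), Cox6c (0.12) and Atp5l (0.34). With the deposited scaling alone Atp5a1 passed as lower, at -0.36.

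4-OHE1 and E2, given at the same dose and times, differ in that E2 is estradiol and 4-OHE1 a hydroxylated form of estrone. For 4-OHE1 against E2, 13 of the 82 members were lower and 1 was higher, beside 7.14% and 2.5% of all genes. Among the 70 abundant members 12 were lower (17.1%), near the 15.7% of all genes at that level. Of members under 1000 bases 7 of 57 were lower (12.3%), beside 14.6% of all genes of that length, and of longer members 6 of 25 (24.0%), beside 6.19%. The median log2 change was -0.23 over the members and -0.02 over all genes. This comparison and the one against EtOH share the 4-OHE1 libraries, and all 13 genes were also lower against EtOH: Ndufc1, Ndufa12 and Ndufa9 of complex I, Uqcr10 and Uqcrc1 of complex III, Cycs, Cox7a2, Cox6a1 and Cox6b1 of complex IV, and Atp5o, Atp5b, Atp5a1 and Atp5c1 of complex V. None of the 4 complex II genes passed, with a log2 change of -0.35 for Sdhc (95% interval -0.58 to -0.12) and of 0.00 for Sdha (-0.30 to 0.30). The count was 0 without E2 replicate 1 and 2 without E2 replicate 2, where 1.21% and 1.85% of all genes were lower, 1 without EtOH replicate 1 or 2 (2.37% and 2.35%), and 28 and 24 without 4-OHE1 replicates 1 and 2 (13.8% and 15.4%). By edgeR 11 of 79 members were lower, with 7.82% of all genes lower.

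Ndufa12 had the smallest adjusted p among the called members, with a log2 change of -0.88 ± 0.11 (SE; limma adjusted p = 0.00711), and was the only one that passed in every setting with all libraries. Cycs changed by -0.96 ± 0.19 (limma adjusted p = 0.0256), Ndufc1 by -0.80 ± 0.20 (0.0499) and Ndufa9 by -0.67 ± 0.11 (0.0151). In complexes III and V, Uqcrc1 changed by -0.48 (limma adjusted p = 0.0123), Uqcr10 by -0.43 (0.0260), Atp5o by -0.59 (0.0190), Atp5b by -0.45 (0.0118), Atp5c1 by -0.45 (0.0428) and Atp5a1 by -0.31 (0.0452). In complex IV the values were -0.44 for Cox7a2 (limma adjusted p = 0.0371), -0.32 for Cox6b1 (0.0299) and -0.31 for Cox6a1 (0.0437). The member called higher was Ndufa4l2, at 1.54 ± 0.37 (limma adjusted p = 0.0453), from 33 and 29 reads in the 4-OHE1 libraries and 3 and 14 in the E2 libraries. It passed in 6 of 18 alternative settings, so this call is weak.

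The authors' deposited table of 4-OHE1 against EtOH, made with edgeR, lists 14 of the 86 members as lower at an adjusted p under 0.05 and 0 as higher, where 6.79% of all 24421 genes in the table are lower. In the authors' deposited table Atp5b has a log2 change of -0.61 and Cycs of -1.14, each 4-OHE1 over EtOH. The authors' deposited table of E2 against EtOH lists 0 members in either direction, where 5.5% of all genes are lower. Of the 24421 genes 10950 passed the filter used above, as did 82 of the 86 members. The shares of members and of all genes in the authors' tables are therefore not matched for level.

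Genes outside the rule that build or feed the chain were counted in the same fits. In 4-OHE1 against EtOH, 4 of 50 assembly factors were lower (8%) and 1 was higher (2%), both shares under those of all genes (13.9% and 5.74%). Taco1, which is needed to translate a complex IV subunit in mitochondria, had 0 reads in both 4-OHE1 libraries, 18 and 23 in E2, and 126 and 298 in EtOH (limma adjusted p = 0.00113). Uqcc2, an assembly factor of complex III, stood at 23.6 and 34.2 exon-scaled RPKM in 4-OHE1, 66.2 and 70.0 in E2, and 62.3 and 72.3 in EtOH (log2 change -1.21, limma adjusted p = 0.00502). Ecsit, of complex I assembly, and Coa4, of complex IV assembly, changed by -1.39 and -1.02, and Ttc19, of complex III, rose by 0.96 (limma adjusted p = 0.0476). Of 12 genes for coenzyme Q synthesis 1 was lower (Coq2, -0.79). Of 16 regulators of nuclear-encoded subunits and of mitochondrial DNA transcription and replication, 1 was lower, Tfb1m (-1.59), a methyltransferase of mitochondrial ribosomal RNA. Of 4 genes of the complexes that the symbol rule missed, 2 were lower, Atpif1 (-0.49), the inhibitor of ATP synthase, and Usmg5 (-0.57), a small ATP synthase subunit.

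The TCA cycle, which supplies the electrons, had 4 of 14 genes lower in 4-OHE1 against EtOH and 0 higher. That is 28.6%, beside 13.9% of all genes and 25.2% of genes with a mean of at least 20 RPKM. Fh1, fumarate hydratase, which takes the product of complex II, stood at 30.7 and 32.7 exon-scaled RPKM in 4-OHE1, 53.7 and 51.0 in E2, and 64.8 and 67.9 in EtOH, and fell by 1.04 ± 0.09 (SE) on the log2 scale (limma adjusted p = 0.000756). Mdh2 (-0.80) and Idh2 (-0.53) were also among the genes called lower. Of 77 mitochondrial ribosomal protein genes 15 were lower (19.5%, median -0.31), among them Mrpl53 (-1.16), Mrpl15 (-1.15) and Mrpl34 (-0.99), and 0 were higher, a share between those of all genes and of the abundant ones. Of 82 cytosolic ribosomal protein genes 1 was lower (Rps27l, -0.41), and their median was 0.11 with the exon scaling and -0.35 with the deposited one. In E2 against EtOH, 0 genes passed in the lists of assembly factors, coenzyme Q synthesis, regulators, the TCA cycle and either ribosome. In 4-OHE1 against E2, 3 of 50 assembly factors, 2 of 14 TCA genes, 10 of 77 mitochondrial and 19 of 82 cytosolic ribosomal protein genes were lower. These shares are 6.00%, 14.3%, 13.0% and 23.2%, beside 7.14% of all genes and 15.7% of the abundant ones.

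Promoters of subunit genes are known for sites of NRF1, a factor that drives nuclear genes of the respiratory chain. RefSeq promoters (build GRCm38.p6, 250 bases before to 50 after each start) were found for 70 of the 86 members. The letters GCGCATGC of the NRF1 core were searched on both strands and were in 11 of the 70 (15.7%), as in 3.05% of all 27025 genes with a promoter in that table. The ETS letters CCGGAAGT, as bound by GABPA, were in 5 (7.14%, against 4.31% of all), and the YY1 letters AAGATGGCG in 8 (11.4%, against 1.64%). The shares of all genes were not limited to genes tested here and not matched for level. The NRF1 letters were in 3 of 19 members that were lower in 4-OHE1 against EtOH (15.8%) and in 8 of 49 tested members that were not (16.3%). Promoters of 3 members with these letters are shown, because they cover both outcomes: Cycs and Cox6a1 were lower, and Atp5g2 was not. Each is the 250 bases before the start, 5′ to 3′ on the gene's strand, and capitals mark the NRF1 letters, which in Cox6a1 and Atp5g2 are read on both strands as overlapping matches.
Cycs, chr6:50566570-50566819, minus strand: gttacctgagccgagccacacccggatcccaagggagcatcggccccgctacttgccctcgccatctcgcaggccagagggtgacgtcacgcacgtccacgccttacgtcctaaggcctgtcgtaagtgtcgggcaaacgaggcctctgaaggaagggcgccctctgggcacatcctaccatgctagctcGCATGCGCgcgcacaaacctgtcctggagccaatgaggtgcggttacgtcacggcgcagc
Cox6a1, chr5:115348959-115349208, minus strand: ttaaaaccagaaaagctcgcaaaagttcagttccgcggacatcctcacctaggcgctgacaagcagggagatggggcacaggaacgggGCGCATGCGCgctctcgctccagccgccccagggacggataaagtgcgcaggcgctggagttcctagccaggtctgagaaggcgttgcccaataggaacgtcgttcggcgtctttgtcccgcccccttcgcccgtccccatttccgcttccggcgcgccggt
Atp5g2, chr15:102671048-102671297, minus strand: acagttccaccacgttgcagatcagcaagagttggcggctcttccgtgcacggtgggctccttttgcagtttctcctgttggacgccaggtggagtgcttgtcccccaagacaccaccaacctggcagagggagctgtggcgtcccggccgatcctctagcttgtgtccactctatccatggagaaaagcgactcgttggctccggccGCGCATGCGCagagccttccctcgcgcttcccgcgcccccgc
The match lay 60 bases before the start in Cycs and began 162 bases before it in Cox6a1 and 42 bases before it in Atp5g2. Levels of Cycs and Cox6a1 stood lower in both 4-OHE1 libraries than in the other 4, and those of Atp5g2 stood higher.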

How the data were processed

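Adipose tissue macrophages of 3 groups with 2 libraries each were sequenced as poly(A) RNA. Reads were aligned with STAR to mm9 and counted in exons with HOMER, per the submitters' processing notes and the file headers. The deposited RPKM values, per the file headers, are scaled to the mapped reads of each library. The authors' edgeR tables hold a signal per gene, exon reads divided by 1 size factor per library, with a log2 fold change, p-value and adjusted p-value. All 119614 nonzero signal values came out as whole reads within 0.05. The design had named a test on counts, but since the values are RPKM the test was limma 3.58.1 (R 4.3.3) with an intensity trend on log2(RPKM + 1), over the 10950 genes that averaged 1 RPKM or more, all 6 libraries in 1 fit, with Benjamini-Hochberg adjustment over all genes, once per scaling. edgeR 4.0.16 and DESeq2 1.42.0 were run on the recovered reads as alternatives. The scripts were tested on simulated data. The members and lists were chosen with earlier results of these data known, and members were named where called, where they had the extreme value of a complex or where their role called for it. The authors' tables keep another transcript than the RPKM table for 15 members. The depth of 4515276 to 35293924 exon reads limits genes with few reads, and floors of 3 reads cover counting error only. The values of 1 gene of the TCA list are not reported here.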

Additional observations from a re-analysis of the deposited data

How the results depend on the processing

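The scaling moved the counts most. With the deposited scaling alone, 59 members were lower in 4-OHE1 against EtOH (72%), 1 in E2 against EtOH (1.22%) and 42 in 4-OHE1 against E2 (51.2%). Of all genes 39.5%, 5.44% and 19.7% were lower in these comparisons. With that scaling Ndufa3 (-0.34), Uqcrb (-0.39) and Atp5d (-0.44) changed sign in 4-OHE1 against EtOH and passed as lower. In 4-OHE1 against EtOH, the count lower was 15 without a filter and 15 by DESeq2, where 7.77% and 9.21% of all genes were lower. The count higher was 2 with the exon scaling or median-ratio factors alone, where 12.8% and 13.2% of all genes were higher. It was 1 by edgeR with TMM, DESeq2 factors or no filter and by DESeq2, where 9.72% to 14.6% of all genes were higher. In 4-OHE1 against E2, 4 were lower without a filter and 1 with only the 4 libraries compared, where 3.36% and 2.34% of all genes were lower. With 0.1 RPKM added, no filter, a mean of at least 5, only those 4 libraries, DESeq2 or the 3 edgeR fits, 0 were higher. Of all genes 0.749% to 6.88% were higher in these settings. Leaving out 1 library gave 1 to 36 lower against EtOH, and 0 to 28 lower and 0 to 1 higher against E2. The cause was not tested.

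Medians are given relative to all genes. Among members under 1000 bases, compared with all genes of that length, they were 0.061 (complex I), -0.031 (III), -0.081 (IV), -0.12 (V) and -0.031 (all members) in 4-OHE1 against EtOH, -0.061 (all) in E2 against EtOH, and 0.047 (I), -0.0074 (III), 0.026 (IV), -0.014 (V) and -0.0033 (all) in 4-OHE1 against E2. At 1000 bases or more they were -0.35 (III), 0.028 (IV) and -0.29 (all), then -0.11 (IV), -0.11 (V) and -0.052 (all), then 0.12 (IV) and -0.31 (all) in the same comparisons. At this length the values for complex IV are those of Cox7a2l alone, which was not called in any comparison. For complex IV the median against EtOH was -0.23 with the deposited scaling, -0.24 by edgeR with TMM or DESeq2 factors, -0.22 with 1 transcript in all tables and -0.22 to -0.15 with 1 library left out, and against E2 it was -0.27 by DESeq2, -0.30 by edgeR without a filter and -0.29 with 1 transcript.

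With the replicate number as a block, 19 members were lower in 4-OHE1 against EtOH and 11 against E2, where 12.4% and 5.87% of all genes were lower. Deviations of same-numbered libraries correlated at 0.01, -0.02 and -0.01 over genes. That cannot decide whether the numbers pair the libraries, since a pairing by design need leave no shared deviation. The submitters' library codes share a prefix within each replicate number, and the labels do not say what it marks. Of the 23 calls against EtOH, 11 passed in all 13 settings that keep every library, and of the 13 against E2, 1 did. The 4-OHE1 and E2 libraries are shallow, which limits Cycs, Atp5l and the tissue forms of complex IV.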
